A study of Arabidopsis thaliana with 4 samples.

Results

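Plant genomes are annotated with many transcripts that carry no evident protein. The 271 described here are the annotations of type other_rna, a class that the table keeps apart from microRNA precursors, that were listed above 0 in at least 1 of 4 mRNA-Seq libraries of Arabidopsis thaliana. They were chosen by their measured FPKM (fragments per kilobase of transcript, scaled to the mapped fragments of the library) among 350 other_rna annotations in a table of 33476 annotations. The remaining 79 were listed at 0 in all 4 libraries. The least abundant transcripts inside the rule, AT3G19002, AT1G36992 and AT1G02952, reached highest values of only 0.00323, 0.0103 and 0.0537 FPKM, and those just outside it were at 0.

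The study dissected plants after 4 weeks in short days (8 h of light) into dividing tissue, which held the meristem and the leaves around it that were still young, and non-dividing tissue, made up of only the 4 to 6 oldest leaves. Growth was at 20 to 22°C and followed 5 days of stratification at 4°C in the dark. All plants were of the Columbia accession and homozygous for a histone H3 gene fused to GFP under its own promoter. Replicate 1 of each tissue came from the HTR5-GFP line, which tags the H3.3 variant, and replicate 2 from the HTR13-GFP line, which tags H3.1, so that replicate and line cannot be told apart. There was no untagged plant among the libraries, and nothing in the labels says how many plants were pooled.

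The tissue labels were checked against marker genes. The shoot apex genes STM, KNAT1, ANT, CYCB1;1, KNOLLE and PCNA1 were each higher in both dividing libraries than in both non-dividing libraries, with STM at 20.7 and 21.6 FPKM against a listed 0 and 0. The rubisco gene RBCS1A was abundant everywhere, between 7497 and 8767 FPKM. Of the senescence genes, SEN1 and SAG13 were higher in non-dividing tissue and SAG12 was listed at 0. The flower gene AP1 was listed at 0, while LFY and the root gene PIN2 stayed at or below 0.471 FPKM. Summed FPKM ranged from 700884 to 715002 per library.

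Many long noncoding annotations of this genome are natural antisense transcripts, which run across a protein-coding gene on the opposite strand. Others lie between genes, and a small number are precursors of trans-acting small interfering RNAs (tasiRNAs). A TAS precursor is cut by a microRNA-guided Argonaute protein, copied into double-stranded RNA and diced into phased small RNAs, some of which then repress other genes. The TAS1 and TAS2 families depend on miR173, and TAS3 on miR390 acting with AGO7. The tasiRNAs of TAS3 repress auxin response factors that pattern the leaf and time its phase change.

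These sequences carry the link between the 5 expressed TAS precursors and the genes described beside them. They were read from the TAIR10.1 RefSeq genome by locus tag. In the mature microRNAs the capitals mark the seed, bases 2 to 8, and miR390b-5p had the same sequence as miR390a-5p. In the precursors the capitals mark bases that pair with the microRNA as A with T or G with C. A G facing a T, a wobble pair in RNA, was counted as a mismatch.
miR173-5p: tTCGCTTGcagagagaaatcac
TAS1A (AT2G27400): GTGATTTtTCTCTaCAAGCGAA
TAS1B (AT1G50055): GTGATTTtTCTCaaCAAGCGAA
TAS1C (AT2G39675): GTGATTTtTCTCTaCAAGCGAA
TAS2 (AT2G39681): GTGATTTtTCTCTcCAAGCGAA
miR390a-5p: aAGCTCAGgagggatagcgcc
TAS3 (AT3G17185), 5′ site: GGtGtTATCCtatCTGAGCTT
TAS3 (AT3G17185), 3′ site: ttgtCTATCCCTCCTGAGCTa

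In TAIR10.1 the miR173 windows lie at chr2:11722081-11722102 (TAS1A), chr1:18549660-18549681 (TAS1B), chr2:16537890-16537911 (TAS1C) and chr2:16539991-16540012 (TAS2), all on the minus strand. The miR390 windows of TAS3 lie at chr3:5862099-5862119 and chr3:5862343-5862363 on the plus strand. The miR173 windows of TAS1A, TAS1C and TAS2 paired at 20 bases with 2 mismatches, and that of TAS1B at 19 bases with 3 mismatches. In all 4 windows the bases facing the seed were paired, and the lower-case t faces a G. No other window of these genes had fewer than 8 mismatches to miR173. TAS3 held a pair of windows with 5 mismatches each to miR390a, starting at bases 609 and 853 of the gene. The next best window had 10 mismatches. A G facing a T made up most of the mismatches of the 5′ window and none of those of the 3′ window. Between these windows, at base 715, lay the 21-base stretch of TAS3 with the fewest mismatches to ARF2, ARF3 and ARF4 together. It is shown with its sites in the 3 genes, where capitals mark the bases that pair with it by the same rule.
TAS3 stretch: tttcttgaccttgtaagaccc
ARF2 site: GGGTCTTgCAAGGTCAAGAAt
ARF3 site: GGGTCTTgCAAGGTCAAGAAA
ARF4 site: GGGTCTTgCAAGGTCAAGAAA

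The stretch lies at chr3:5862205-5862225, and the sites at chr5:24913262-24913282 (ARF2), chr2:14325941-14325961 (ARF3) and chr5:24309507-24309527 (ARF4). By that rule ARF3 and ARF4 paired with the stretch at 20 of 21 bases and ARF2 at 19. The lower-case g of each site faces a T of the stretch, a wobble pair counted as a mismatch.

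All 5 expressed TAS precursors were detected in both tissues, and TAS1A, TAS2 and TAS3 were higher in dividing tissue. The replicates of TAS1A, TAS1B, TAS2 and TAS3 varied in a tissue beyond the limit that the study set for unexpected variation. TAS3 lay at 17.9 and 20.4 FPKM in dividing tissue and at 12.6 and 8.22 FPKM in non-dividing tissue. The tissues did not overlap for TAS3, and the log2 fold change of dividing over non-dividing tissue, computed on log2(FPKM + 1), was 0.84 ± 0.21 (SE; limma adjusted p = 0.0174). TAS2 lay at 13.6 and 20.8 FPKM in dividing tissue against 10.9 and 6.44 FPKM, a log2 fold change of 0.92 ± 0.30 (adjusted p = 0.0409). TAS1A, at 4.91 and 6.81 against 2.68 and 3.13 FPKM, changed by 0.80 ± 0.17 (adjusted p = 0.0102). In each of the 3 precursors the dividing libraries stood above both non-dividing libraries, as they did in TAS1C, which did not pass. These calls were lost when certain libraries were left out. TAS3 had adjusted p = 0.113 and 0.162 without dividing replicate 1 or 2, TAS2 0.0979 and 0.265 without the same libraries and 0.143 without non-dividing replicate 2, and TAS1A 0.0617 without dividing replicate 2 and 0.0501 without non-dividing replicate 1.

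TAS1C lay at 3.47 and 4.59 FPKM in dividing tissue and at 3.22 and 2.47 FPKM in non-dividing tissue (log2 fold change 0.38, adjusted p = 0.0961). TAS1B lay at 2.47 and 2.97 FPKM against 2.70 and 0.950 FPKM, so that its tissues overlapped (log2 fold change 0.47, adjusted p = 0.242, and 0.93 with adjusted p = 0.0126 without non-dividing replicate 1). TAS1A and TAS1B aligned over 918 bases of their genes with 74.4% identity, yet at least 98.0% of the 32-base stretches of each of the 5 precursors occurred once in the genome. The 3 further annotated precursors, TAS4, TAS3B and AT5G57735, were listed at 0 in every library.

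A shift of the whole table bears on these modest values. The median log2 fold change over the 17967 annotations tested was 0.38, and it became 0.02 after the libraries were rescaled so that the median annotation had the same level in each. On that rescaled table TAS3 changed by 0.46 (adjusted p = 0.118), TAS2 by 0.55 (adjusted p = 0.173) and TAS1A by 0.48 (adjusted p = 0.0531), none past the threshold. With the line as a block on the rescaled table, TAS1A passed (adjusted p = 0.0123) and TAS3 did not (adjusted p = 0.0601).

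Transcripts of the genes for tasiRNA production were higher in dividing tissue for all 6 genes of a chosen list, with 51.7% of all annotations tested called higher. DCL4, whose product dices the double-stranded precursor, showed the largest value (13.7 and 14.8 against 2.99 and 3.64 FPKM, log2 fold change 1.83 ± 0.12, adjusted p = 0.000387). AGO1, which encodes the Argonaute protein of miR173, lay at 104 and 115 against 45.9 and 47.1 FPKM (log2 fold change 1.22 ± 0.09). RDR6 and SGS3, whose products convert the cleaved RNA to a double strand, changed by 0.86 and 0.78. AGO7 changed by 0.50 and DRB4, which encodes a partner of DCL4, by 0.47. After rescaling, AGO7 (adjusted p = 0.143) and DRB4 (adjusted p = 0.326) no longer passed, and after quantile normalization neither these nor SGS3 did (adjusted p = 0.0577 for SGS3).

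The tasiRNA targets were also higher in dividing tissue. ARF3 lay at 16.7 and 16.3 against 7.50 and 8.72 FPKM (log2 fold change 0.95 ± 0.10, adjusted p = 0.00136) and ARF4 at 13.5 and 15.4 against 6.69 and 7.59 FPKM (0.92 ± 0.11, adjusted p = 0.00188). ARF2 was far more abundant, at 137 and 136 against 105 and 117 FPKM, with a log2 fold change of 0.30 ± 0.09 (adjusted p = 0.0381) that became −0.10 (adjusted p = 0.360) after rescaling.

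**Figure D1:**
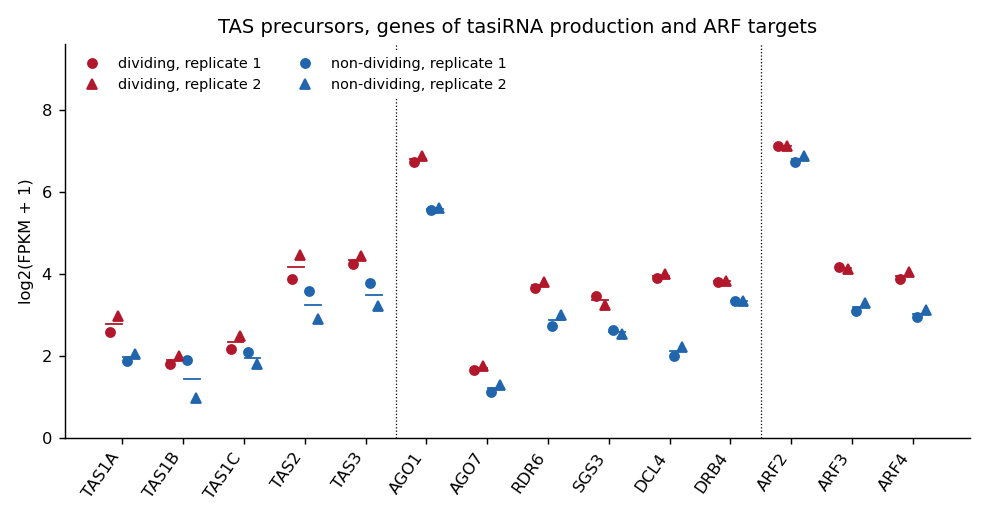
FPKM on the log2(FPKM + 1) axis for 5 TAS precursors, 6 genes of tasiRNA production and 3 ARF genes, with dotted lines between the groups; each point is 1 library and each bar the mean of a tissue's 2 libraries. The points of TAS1B overlap between tissues, whereas those of DCL4 and AGO1 are well apart.

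The members as a set were low but broadly present. Their median mean FPKM over the 4 libraries was 3.43, against 9.17 for the 20169 protein-coding annotations above 0, and their median length was 1384 bases, ranging from 162 to 7697. In all, 236 were above 0 in every library, 12 in exactly 3 libraries, 15 in exactly 2 and 8 in exactly 1. A mean of at least 10 FPKM was reached by 70 members and at least 100 FPKM by 8. The share of other_rna annotations above 0 was 77.4%, close to the 73.9% of protein-coding annotations and above the 19.7% of pseudogenes and 8.19% of transposable element genes.

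Together the members held 0.562% and 0.529% of all FPKM in the dividing libraries, and 0.444% and 0.431% in the others. Among members, log2(FPKM + 1) correlated with Pearson's r of 0.979 between the dividing libraries and 0.972 between the non-dividing libraries, and of 0.867 to 0.879 between tissues. These are correlations across 271 transcripts, which are not independent replicates. The replicates of a tissue varied beyond the limit that the study set for unexpected variation in 28.0% of members and in 18.0% of protein-coding annotations above 0.

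By locus tag, 268 members were found in the reference annotation. There 163 carried a note as natural antisense transcripts, 63 were described only as unknown genes, 35 had no note, 5 were tasiRNA precursors and 2 had a description of their own. The reference now lists 5 of the members as protein-coding, among them AT1G24148 and AT3G63540.

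The 8 most abundant members moved in different directions. AT4G13495, an RNA of unknown role on chromosome 4 (TAIR9, 7842967 to 7846774) that contains the annotation of the microRNA precursor MIR850 and overlaps that of MIR863, was the highest, at 385 and 332 FPKM in non-dividing tissue and 199 and 170 FPKM in dividing tissue. It was lower in dividing tissue by 0.95 ± 0.13 on the log2 scale (adjusted p = 0.00269). AT3G63540, whose reference description is a hypothetical protein containing the sequence of a chloroplast lumenal protein, was also lower, at 122 and 134 against 164 and 192 FPKM (log2 fold change −0.47, adjusted p = 0.0179). That call was lost without dividing replicate 1 (adjusted p = 0.123), dividing replicate 2 (0.079) or non-dividing replicate 2 (0.0572).

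GUT15 (AT2G18440), a noncoding RNA known for its rapid turnover, lay at 249 and 225 against 168 and 166 FPKM. Its log2 fold change of 0.50 ± 0.10 (adjusted p = 0.00792) became 0.094 (adjusted p = 0.447) after rescaling, and without dividing replicate 1 the call was lost (adjusted p = 0.0513). AT5G24735 (186 and 150 against 187 and 194 FPKM) and AT1G69252 (185 and 172 against 173 and 165 FPKM) did not pass the threshold, with log2 fold changes of −0.19 (adjusted p = 0.251) and 0.07 (adjusted p = 0.510). After rescaling both passed as lower in dividing tissue, at −0.59 (adjusted p = 0.0157) and −0.33 (adjusted p = 0.0334).

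AT1G24825, AT1G25098 and AT1G25175 lie on chromosome 1 (TAIR9, starting at 8775901, 8812811 and 8827286) and gave near-parallel values. AT1G24825 measured 246 and 234 FPKM in dividing tissue against 120 and 127 FPKM, AT1G25098 211 and 203 against 104 and 110 FPKM, and AT1G25175 173 and 168 against 89.2 and 90.8 FPKM. Their log2 fold changes were 0.95, 0.95 and 0.92, each past the threshold. However, the TAIR10.1 genes AT1G25098 and AT1G25175 aligned over 2570 bases with 2569 identical. These genes are longer than the measured TAIR9 annotations, of 1640 and 2035 bases. Of their 32-base stretches, 0.433% and 0% occurred once in the genome, so their reads cannot be assigned to a locus and their values are not independent. AT1G24825 was not found in the reference and was not aligned.

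AT1G24825 and AT1G25098 overlap protein-coding annotations over 92.4% and 100% of their length. Those partners, AT1G24822 and AT1G25097, measured at most 0.107 and 0.567 FPKM. Nearly all of the signal in the shared interval was thus listed under the noncoding annotation.

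Between tissues, 208 members had a mean of at least 1 FPKM and were tested. In dividing tissue 95 (45.7%) were higher and 34 (16.3%) lower, against 51.7% and 18.2% of all 17967 annotations tested, and 79 did not pass the threshold. The filter was met through the higher tissue by some: 13 of the tested members had a mean under 1 FPKM in non-dividing tissue and 7 in dividing tissue. All 95 and all 34 moved in the same direction in both lines. Calls made on these same libraries favour that, so it is no separate support. The median log2 fold change was 0.38, the same as over all annotations tested. After rescaling, 51 were higher and 47 lower, with 31.1% and 30.6% over all annotations, and the medians were 0.04 and 0.02. The 51 higher and 34 of the 47 lower members carried the same call on the deposited values. Without replicate 1 or replicate 2 of dividing tissue, 54 members were called higher, and 23 and 18 lower. In both directions and on both scales the members' shares lay below those of all annotations, a difference that was not tested. In tissue samples such as these, fewer cells of a type and less RNA per cell cannot be told apart.

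**Figure D2:**
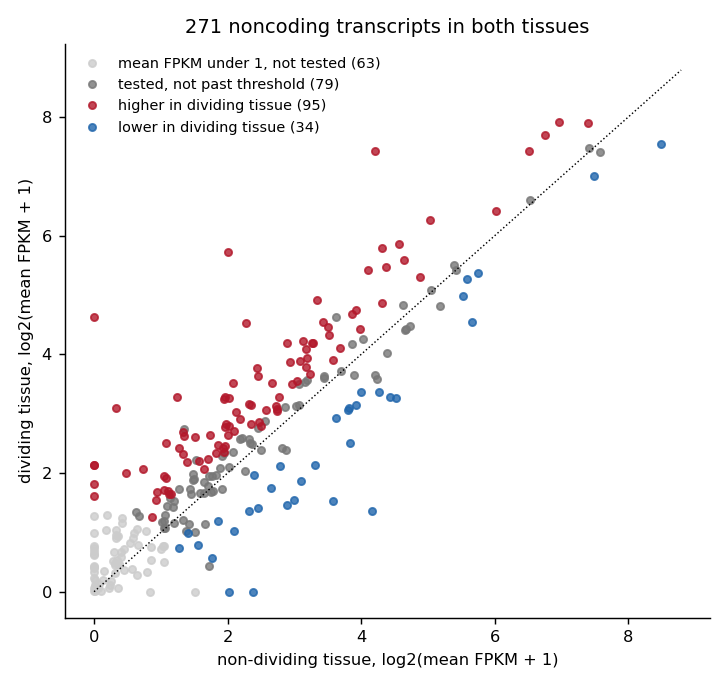
Each point is 1 of the 271 members, with the mean of the 2 libraries of non-dividing tissue on the horizontal and of dividing tissue on the vertical axis, both as log2(mean FPKM + 1); the dotted line marks equality. Of the points above it, 95 passed the limma test on deposited values, and of those below it 34.

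By annotation class, of 113 tested antisense members 54 (47.8%) were higher and 13 (11.5%) lower. For 55 members described as unknown genes the counts were 25 (45.5%) and 13 (23.6%). For 30 members with no note they were 9 (30%) and 7 (23.3%). Over all annotations tested the shares were 51.7% and 18.2%. Members that overlapped a protein-coding annotation were higher in 55 (48.2%) and lower in 13 (11.4%) of 114 cases. Those that overlapped none were so in 40 (42.6%) and 21 (22.3%) of 94. After rescaling the counts of these overlapping and non-overlapping members were 30 and 19, and 21 and 28, with 31.1% and 30.6% over all annotations. No test of the difference between these classes was made.

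Of the 8 members with the largest rise towards dividing tissue, 6 overlapped no protein-coding annotation, the exceptions being AT3G22121 and AT2G47895. Of the 8 largest falls 7 overlapped none, and of all 208 tested members 94. AT3G61198, of unknown role, lay at 51.5 and 52.1 FPKM in dividing tissue and at 3.33 and 2.67 FPKM in non-dividing tissue, a 17.3-fold ratio of means (log2 fold change 3.73 ± 0.11, adjusted p = 0.00014). AT1G04425 lay at 24.4 and 23.3 FPKM in dividing tissue and was listed at 0 in both non-dividing libraries (adjusted p = 0.000116). AT4G26255 lay at 6.97 and 8.11 FPKM against 0.513 and a listed 0 FPKM. AT2G15128, only 213 bases long, lay at 20.5 and 23.5 against 4.10 and 3.60 FPKM, a 5.71-fold ratio. AT3G59765 lay at 7.50 and 9.97 against 1.35 and 1.38 FPKM, a 6.40-fold ratio. AT1G49952 (3.82 and 3.01 FPKM) and AT2G47895 (3.63 and 3.12 FPKM) were listed at 0 in non-dividing tissue. In none of these transcripts did the tissues overlap, which choosing the largest changes past the threshold favours.

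AT3G22121 was the antisense member with the largest change. It lay at 176 and 166 FPKM in dividing tissue and at 24.3 and 10.6 FPKM in non-dividing tissue (log2 fold change 3.33 ± 0.37, adjusted p = 0.00141). It overlaps CWLP (AT3G22120), which encodes a cell wall-plasma membrane linker protein, over 97.6% of its length. CWLP lay at 1525 and 1523 against 182 and 138 FPKM, a log2 fold change of 3.26 ± 0.16. The changes of the pair differed by 0.07 ± 0.27 (adjusted p = 0.845). Because the libraries kept no strand, reads of AT3G22121 and of CWLP in the shared interval cannot be told apart.

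The 8 members with the largest falls towards dividing tissue were led by AT1G24148, at 1.40 and 1.75 FPKM in dividing tissue against 16.8 and 16.8 FPKM (10.7-fold lower by means, log2 fold change −2.79 ± 0.11, adjusted p = 0.000189). AT4G12917 lay at 1.86 and 1.89 against 8.83 and 13.2 FPKM, AT2G41312 at 2.26 and 1.26 against 6.95 and 5.93 FPKM, and AT4G40065 at 1.80 and 2.01 against 6.99 and 6.87 FPKM. AT5G38005 lay at 0.968 and 0 against 2.63 and 2.21 FPKM, a call lost without non-dividing replicate 1 or 2 (adjusted p = 0.0903 and 0.0659) and with a pseudocount of 0.1 (adjusted p = 0.0747). AT3G57157 (4.12 and 4.32 FPKM in non-dividing tissue) and AT1G26558 (4.43 and 1.70 FPKM) were listed at 0 in both dividing libraries. For AT1G26558, 45.5% of the 32-base stretches occurred once in the genome, so part of its reads could stem from other loci, and its call was lost without dividing replicate 1 or 2 (adjusted p = 0.0805 and 0.0818). AT5G06865 runs antisense to PGIP1, which encodes an inhibitor of fungal polygalacturonase, and lay at 4.51 and 4.91 against 13.8 and 12.7 FPKM. These 16 changes kept their direction after rescaling and each still passed. They were chosen as the largest, and rescaling moved the median of all annotations only from 0.38 to 0.02, so a reversal was not to be expected. Among these 16, the replicates of AT3G22121, AT4G26255, AT1G26558, AT2G41312, AT4G12917 and AT5G38005 varied in a tissue beyond the study's limit.

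**Figure D3:**
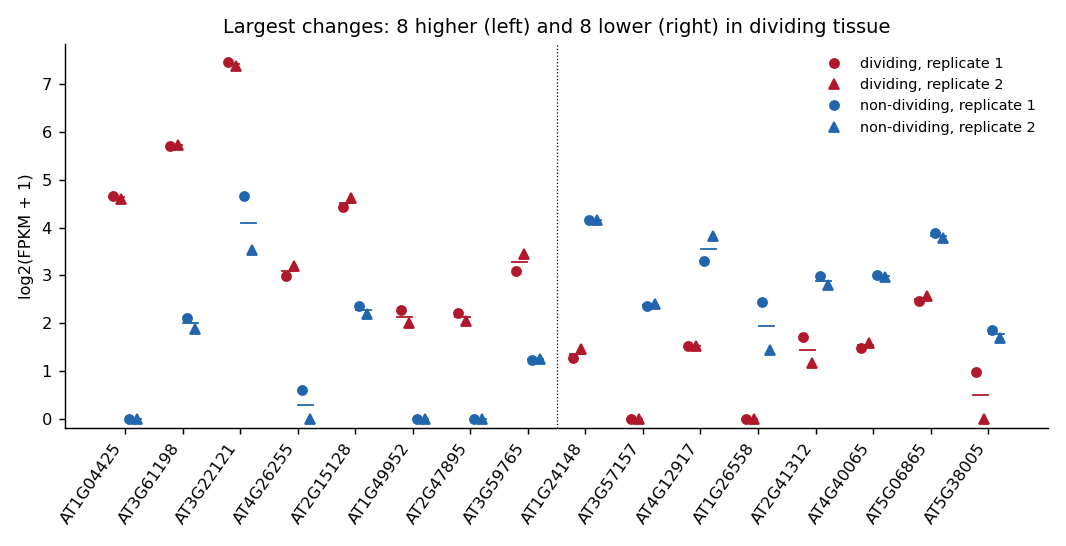
FPKM of each library, on the log2(FPKM + 1) axis, for the 8 members with the largest rise and the 8 with the largest fall in dividing tissue among those past the threshold; bars are the means of 2 libraries. In all 16 the points of the tissues do not overlap, which this choice of members favours.

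Some members were listed above 0 in 1 tissue only, though a listed 0 need not mean that the RNA was absent. In non-dividing tissue 12 members were listed at 0 in both libraries while above 0 in both dividing libraries, and over all annotations above 0 the share was 4.71%. The reverse held for 2 members, AT1G26558 and AT3G57157, with a share of 0.890% over all annotations. Beside those above, the 12 included AT1G43765 (1.98 and 3.01 FPKM) and AT4G30975 (1.72 and 2.37 FPKM), and the others were at or below 1.63 FPKM. AT3G52748 (3.68 and 0 FPKM in non-dividing tissue) and AT2G05995 (1.59 and 0 FPKM) were listed at 0 in dividing tissue but appeared in only 1 non-dividing library. AT3G52748 also overlaps another other_rna annotation. A difference of at least 5 times between tissue means, the limit the study used, held for 28 members towards dividing tissue and 9 towards non-dividing tissue, against 10.8% and 3.76% of all annotations. Of these, 18 and 4 were listed at 0 in the lower tissue. With 1 added to each mean the counts were 4 and 2. The 9 became 17 without dividing replicate 1 and 5 without non-dividing replicate 1, and the 28 ranged from 22 to 42 with a library left out.

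AT1G04425 on chromosome 1 (TAIR9, 1194187 to 1196889) and AT3G59765 on chromosome 3 (TAIR9, 22076461 to 22078339), both among the 8 largest rises, had related promoters. Among all 120 pairs of promoters of these 16 members, their local alignment scored highest, at 69, with the next pair at 31. It covered 142 aligned positions with 71.1% identity. Within the genes themselves the best alignment covered 175 positions with 68.0% identity. Both promoters are shown from 250 bases before to 50 bases after the start of the TAIR10.1 gene (chr1:1193937-1194236, plus strand, and chr3:22078312-22078611, minus strand). Capitals mark the letters TGGGCC (site II), CACGTG (G-box) and AACGG (the core bound by MYB3R factors of mitotic genes), on either strand.
AT1G04425 promoter: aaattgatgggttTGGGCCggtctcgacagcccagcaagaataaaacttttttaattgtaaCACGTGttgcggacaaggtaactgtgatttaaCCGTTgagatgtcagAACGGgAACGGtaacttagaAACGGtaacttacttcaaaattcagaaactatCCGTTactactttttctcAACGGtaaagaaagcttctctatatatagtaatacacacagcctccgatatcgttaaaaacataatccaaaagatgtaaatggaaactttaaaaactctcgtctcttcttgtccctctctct
AT3G59765 promoter: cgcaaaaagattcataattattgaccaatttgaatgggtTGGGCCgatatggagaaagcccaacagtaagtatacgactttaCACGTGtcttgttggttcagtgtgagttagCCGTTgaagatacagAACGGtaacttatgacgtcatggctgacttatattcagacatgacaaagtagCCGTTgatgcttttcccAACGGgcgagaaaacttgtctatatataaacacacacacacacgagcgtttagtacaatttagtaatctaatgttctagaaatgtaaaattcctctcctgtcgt

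In both sequences a site II came first, then a G-box, then a run of AACGG cores. The AT1G04425 promoter held 6 cores and that of AT3G59765 held 4. Among the promoters of 37897 RefSeq genes, 9 held at least 6 and 91 at least 4. AACGG occurred in 24.5% of all promoters and in 24.7% of those of 267 members. It was in 3 of the 8 promoters of the largest rises, the other being that of AT2G15128 with 1 copy, and in 0 of the 8 of the largest falls. TGGGCC occurred in 13.03% of all promoters, 18.7% of those of members, 4 of the 8 largest rises and 0 of the 8 largest falls. The G-box letters were in 6.46%, 7.87%, 2 of 8 and 1 of 8. The E2F-type letters TTTCCCGC or TTTGGCGC, in 1.77% of all promoters, and the telo box AAACCCTA, in 6.17%, matched none of the 16. A match describes the letters only, and no binding was measured. All promoters were taken at TAIR10.1 starts, and only 129 of the 271 members had the same start and end there as in TAIR9. By number, the windows of AT2G47895 (19609711 to 19610010) and AT3G22121 (7794706 to 7795005) end before their TAIR9 starts (19610473 and 7795606). These windows may therefore not adjoin the measured intervals.

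Most members shared ground with a protein-coding gene. By TAIR9 coordinates, 163 of the 271 overlapped a protein-coding annotation by at least 1 base, 151 of them 1 gene and 12 of them 2 genes, and 129 by at least 50% of their own length. The median overlap was 81.5% of the member. For comparison, 12.5% of protein-coding annotations overlapped another annotation. With the partner taken as the protein-coding annotation of largest overlap, 160 of 161 members ran opposite to it where the strand of both was known. In 38 of these the member lay inside the partner, in 35 the partner lay inside the member, in 49 the 5′ ends overlapped and in 38 the 3′ ends.

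The other 108 members overlapped no protein-coding annotation, and 97 of them overlapped no annotation at all. They lay a median of 571 bases from the nearest protein-coding annotation, with 48 of them nearer than 500 bases. Their median mean level was 5.09 FPKM, against 2.37 FPKM for the 163 that overlapped.

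In 92 pairs of 88 members and their partners both annotations reached a mean of 1 FPKM, and the changes between tissues were set against each other within each library. Member and partner were both called in the same direction in 31 pairs and in opposite directions in 5. Only the member was called in 17 pairs, only the partner in 22 and neither in 17. The log2 fold changes of member and partner correlated with Pearson's r of 0.569 and Spearman's rho of 0.444 over the 92 pairs, which share libraries and, in the shared interval, reads. The correlation was 0.623 over 66 pairs in which the overlap took at least 50% of the member and 0.388 over 26 pairs with less. It was 0.760 over the 23 pairs with the member inside the partner and 0.719 over 19 pairs with overlapping 5′ ends. Over 20 pairs with the partner inside the member it was 0.563, and over 26 pairs with overlapping 3′ ends 0.191. No correlation was computed for the 4 pairs on the same strand. The 19 pairs with overlapping 5′ ends held AT3G22121 with CWLP, whose log2 fold changes (3.33 and 3.26) were the largest among the 92 pairs. Differences between the arrangements were not tested. For the mean levels r was 0.195, and the member measured a median of 65.3% of the partner's mean FPKM.

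The change differed between member and partner in 27 of 92 pairs (29.3%), against 48.8% of 1169 overlapping pairs of any annotation. In 18 of these the member moved more towards dividing tissue than its partner and in 9 the partner did. Of the 20 pairs in which the partner lay inside the member, 10 were of the former kind and 1 of the latter.

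The 5 pairs in which the member moved most towards dividing tissue had partners with higher values in non-dividing tissue. AT1G15175 rose from 2.62 and 3.49 FPKM in non-dividing tissue to 10.06 and 7.11 FPKM in dividing tissue, while its partner AT1G15170, which encodes a MATE efflux family protein, lay at 10.6 and 12.5 FPKM and 5.88 and 6.64 FPKM. The pair overlaps over only 5.05% of the member, at the 3′ ends, and its changes differed by 2.02 ± 0.25 (adjusted p = 0.00286). AT3G46668 contains UGT76E11, a glycosyltransferase gene. The member lay at 5.20 and 4.79 against 3.21 and 4.09 FPKM (log2 fold change 0.37, adjusted p = 0.0546), and UGT76E11 at 3.47 and 2.19 against 10.6 and 10.2 FPKM. On its own AT3G46668 passed with the line as a block (adjusted p = 0.0399) and without non-dividing replicate 2 (adjusted p = 0.0302), but its change was 0.042 after rescaling (adjusted p = 0.800, and 0.797 with the block) and −0.090 after quantile normalization (adjusted p = 0.575). The changes of this pair differed by 1.97 ± 0.23 (adjusted p = 0.00243).

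AT5G01595 runs antisense to FER1, which encodes a plastid ferritin that stores iron. The member lay at 3.56 and 3.66 against 2.03 and 1.91 FPKM, and FER1 at 50.3 and 66.2 against 108 and 101 FPKM. Both passed the test in opposite directions on the deposited values, and their changes differed by 1.48 ± 0.19 (adjusted p = 0.00294). The call of AT5G01595 was lost after quantile normalization (0.16, adjusted p = 0.224). AT1G48315 (3.33 and 3.80 against 1.67 and 1.57 FPKM) and DHNAT1, a thioesterase gene of vitamin K1 synthesis that it contains (9.76 and 10.5 against 15.8 and 14.8 FPKM), were likewise opposite, with a difference of 1.35 ± 0.17 (adjusted p = 0.00303). The call of AT1G48315 was also lost after quantile normalization (0.32, adjusted p = 0.0561). AT1G71528 lay at 3.10 and 3.24 against 0.701 and 0.621 FPKM, while the kinase gene AT1G71530 inside it lay at 0.798 and 0.662 against 1.89 and 0.888 FPKM. The latter did not pass on its own (adjusted p = 0.153), and the pair differed by 1.76 ± 0.24 (adjusted p = 0.0038). AT5G06865, described above, is also of this kind: both fell, and the fall of PGIP1, from 72.3 and 87.6 to 14.2 and 12.8 FPKM, was larger than that of the member (difference 1.16 ± 0.20, adjusted p = 0.00726).

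In the other direction, the partner moved more towards dividing tissue than the member. AT5G66558 lay at 1.37 and 0.708 against 1.79 and 1.43 FPKM (adjusted p = 0.155, and 0.0139 after rescaling with the block), and its partner AT5G66560, an NPH3 family gene, at 12.3 and 11.9 against 3.81 and 3.28 FPKM. Their changes differed by −1.90 ± 0.22 (adjusted p = 0.00229). AT3G63445 was lower in dividing tissue, at 2.98 and 2.82 against 3.99 and 4.57 FPKM, while CKX6, which encodes a cytokinin oxidase, was higher, at 8.46 and 10.97 against 3.80 and 3.73 FPKM (difference −1.59 ± 0.22, adjusted p = 0.00382). The call of AT3G63445 itself was lost without dividing replicate 1 or 2 or non-dividing replicate 2 (adjusted p = 0.0897, 0.114 and 0.0707). AT3G01142 lies wholly inside MYB106, a regulator of epidermal cell shape and cuticle. Both rose, the member from 3.19 and 3.31 to 9.79 and 11.1 FPKM and MYB106 from 0.231 and 0.174 to 7.76 and 7.59 FPKM (difference −1.43 ± 0.18, adjusted p = 0.0032). AT1G79529 (4.70 and 3.30 against 1.25 and 1.80 FPKM) and GAPCP-1, a plastid glyceraldehyde-3-phosphate dehydrogenase gene (16.8 and 20.98 against 2.06 and 2.20 FPKM), also rose together, by 0.98 and 2.66 on the log2 scale, and the call of the member was lost without dividing replicate 1 (adjusted p = 0.0655) and after quantile normalization (adjusted p = 0.0829). AT3G52535 lay at 23.2 and 17.8 against 25.5 and 23.2 FPKM (log2 fold change −0.25, adjusted p = 0.189), and OFP18, of the OVATE family of transcriptional repressors, at 5.05 and 4.16 against 0.823 and 1.64 FPKM. AT3G52535 passed as lower in dividing tissue after rescaling (−0.64, adjusted p = 0.0192, and 0.00226 with the block) and after quantile normalization (−0.51, adjusted p = 0.0463). The pair overlaps over 0.77% of the member, and its changes differed by −1.60 ± 0.27 (adjusted p = 0.00631). Reads in the shared interval could come from either strand in every pair, and their part in these values was not tested.

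**Figure D4:**
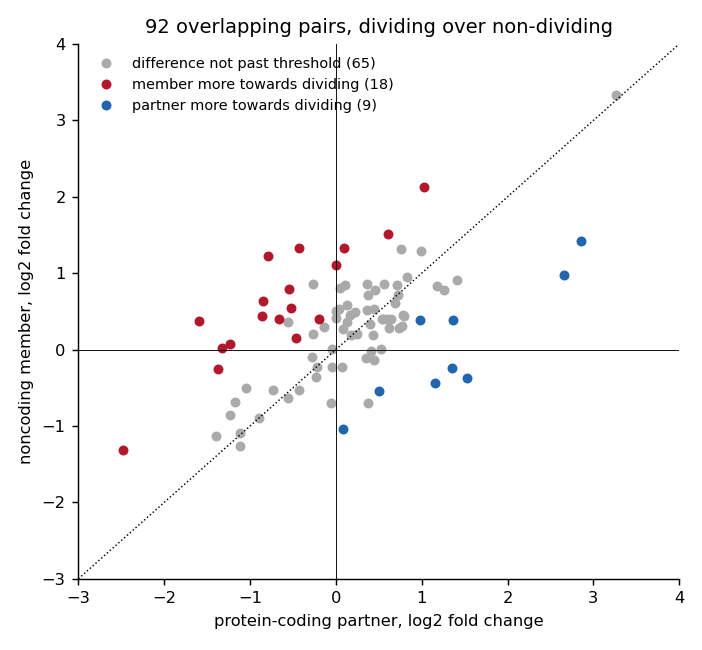
Each point is 1 of 92 overlapping pairs, with the log2 fold change of the protein-coding partner on the horizontal and of the noncoding member on the vertical axis, both dividing over non-dividing on log2(FPKM + 1); the dotted line marks equal change. The 18 red and 9 blue points differ from it by the limma test on the difference, and the point farthest to the upper right is AT3G22121 with CWLP.

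Other RNAs of known name gave few values. ZPR4 (AT2G36307), the symbol of a small leucine zipper gene that restrains HD-ZIP III factors, lay at 2.39 and 1.91 against 1.24 and 1.19 FPKM (log2 fold change 0.50, adjusted p = 0.0218). It did not pass after rescaling (0.25, adjusted p = 0.158) or without non-dividing replicate 1 or 2 (adjusted p = 0.0556 and 0.0643). The phosphate starvation RNAs IPS1 and AT4 were typed as protein-coding in the table and so are not members: IPS1 was listed at 0, and AT4 lay at 9.07 and 2.89 against 15.95 and 10.2 FPKM (log2 fold change −1.14). AT4 was lower in dividing tissue in both lines, with adjusted p = 0.0882 without a block, 0.00167 with the line as a block, 0.0477 after rescaling and 0.000571 after rescaling with the block. Of the 7 phosphate response genes listed with them, SPX1 and PHT1;4 were higher in dividing tissue, PLDZ2 was lower, PHR1, PHO2 and SQD2 did not pass the threshold, and SPX3 was listed at 0. After rescaling SQD2 passed as lower in dividing tissue (−0.29, adjusted p = 0.0303), and PHO2 did so only with the block (−0.29, adjusted p = 0.0435). PHT1;4 did not pass after quantile normalization (0.33, adjusted p = 0.0676).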

How the data were processed

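Poly-A RNA of 4 libraries, 2 for each tissue, was sequenced without strand information on a Genome Analyser IIx. The authors aligned the reads to TAIR9 with TopHat 1.2.0, Bowtie 0.12.7 and SAMtools 0.1.13 and deposited FPKM values per annotation from Cufflinks 0.9.3, with no read counts, so that no counting error could be given and the depth behind each value is unknown from the table. Low values showed no whole-read steps (the most frequent ratio was shared by 4 of 1983 values under 1 FPKM). The table's starts count from 0, and coordinates are given from 1. Members and gene lists were chosen with earlier results of these data known. Named members were the TAS precursors, those with a name of their own, the 8 largest changes in each direction past the threshold and alike in both lines, the 8 highest means, the 5 highest listed at 0 in a tissue, and the 5 pairs that differed most in each direction. AT3G19002, AT1G36992 and AT1G02952 were named after their values were seen, as the members just inside the rule.

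Tissues were compared with limma 3.58.1 (R 4.3.3) on log2(FPKM + 1), with trended variance, over annotations with a mean of at least 1 FPKM, Benjamini-Hochberg adjustment over all of them and a threshold of 0.05; fold changes on this scale understate changes of low values. Pairs were tested likewise on the difference of member and partner over all overlapping pairs. An exact permutation test of 2 against 2 libraries cannot go below 0.333. The replicate number marks the transgenic line, per the labels, and so pairs the libraries: deviations of same-numbered libraries from the tissue means correlated with r of 0.257. Nothing says that the samples came from separate harvests beyond the line, so p-values measure the spread between these libraries. The script was tested on simulated data. Alternatives covered the pseudocount, the filter, rescaling, quantile normalization, the block on line, each library left out, the 2-fold limit, the study's variation limit and the overlap rule. Sequences, strands and notes came from TAIR10.1 (RefSeq) by locus tag, without transfer of coordinates between builds. Local alignments used Biopython 1.88 with scores of 2, −3, −5 and −2 for match, mismatch, gap opening and gap extension.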

Additional observations from a re-analysis of the deposited data

Results flagged for a closer look

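TAS1B (AT1G50055) moved in opposite directions in the lines: on log2(FPKM + 1), dividing minus non-dividing tissue gave −0.094 for replicate 1 (HTR5-GFP) and 1.03 for replicate 2 (HTR13-GFP), which differ by 1.12. With 1 library for each tissue and line this difference was not tested. The value of non-dividing replicate 2, 0.950 FPKM, stood apart from the other 3 libraries, which lay between 2.47 and 2.97 FPKM.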

How the results depend on the processing

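The limits of these data are the 2 libraries for each tissue, the lack of counts and strand, and a shift of the whole table between tissues. Members higher and lower in dividing tissue numbered 95 and 34 on deposited values, 51 and 47 after rescaling, 61 and 56 after rescaling with the replicate block on line, 48 and 50 after quantile normalization, 58 and 20 with a mean of at least 5 FPKM, and 32 and 15 with a 2-fold limit. With a library left out, where the lone library of a tissue was assumed to vary like the others, they ranged from 54 to 85 higher and from 18 to 29 lower. The replicate block alone gave 104 and 41. Pairs that differed numbered 18 (member) and 9 (partner), and 35 and 19 without the filter. They numbered 7 and 4 when variance and adjustment were refitted over only the overlapping pairs with at least 50% of the member shared. That refit on fewer pairs changes the calls themselves. The lower counts thus do not show how many of the pairs called in the main fit overlap by that much. At a mean of at least 5 FPKM, with 24 pairs tested by limma, they numbered 6 and 0, and 6 and 0 at an unadjusted p under 0.05. With a library left out they ranged from 12 to 17 and from 6 to 9. Of the 163 overlapping members, 38 lay wholly inside the partner. Members at least 5 times higher in dividing tissue numbered 28, and 9 in non-dividing tissue; adding 1 to each mean gave 4 and 2, leaving out members at 0 gave 10 and 5, and requiring it in both lines, as a replicate block in kind, gave 18 and 3. For non-dividing tissue they ranged from 5 to 17 with a library left out, the highest without dividing replicate 1 and the lowest without non-dividing replicate 1. Of 42 named members with a fit, 23 kept direction and call under every alternative run. With the line as a block, 1 named call changed, that of AT3G46668. Direction reversed for 4: AT1G69252 (−0.33 rescaled, −0.33 rescaled with the replicate block and −0.12 after quantile normalization), and, after quantile normalization, TAS1B (AT1G50055, −0.021), TAS1C (AT2G39675, −0.088) and AT3G46668 (−0.090). The cause was not tested.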
